A study of Arabidopsis thaliana with 48 samples.

Results

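Light signalling in Arabidopsis seedlings was followed through 10 genes: the photoreceptors *PHYA* and *PHYB*, the phytochrome-interacting factors *PIF3*, *PIF4* and *PIF5*, the repressor *COP1*, the bZIP factors *HY5* and *HYH*, and the early light-induced proteins *ELIP1* and *ELIP2*. They were taken by locus tag from a list chosen with earlier results of these data known, and all 10 were present among the 33977 genes of both expression tables. Leaves and roots were taken for RNA after 11 days of growth on plates in constant light, either in spaceflight (FT, Veggie hardware aboard the ISS) or as a ground control (GC, the same hardware in an environmental simulator at Kennedy Space Center). The genotypes were *elp2-5*, a mutant of the Elongator subunit gene *ELP2*, *met1-7*, a mutant of the maintenance DNA methyltransferase gene *MET1*, and their wild type Col-0, and each mutant was represented by a single allele. Each of the 12 groups of genotype, environment and organ held 4 libraries, 48 in all, and all seedlings had been fixed in RNAlater. Levels are FPKM (fragments scaled by transcript length and by library size), and differences are log2 fold changes of log2(FPKM + 0.5).

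Phytochromes are red and far-red light receptors that move to the nucleus when activated by light and there bring about the turnover of PIFs, basic helix-loop-helix factors that promote elongation growth. COP1 is an E3 ubiquitin ligase that marks HY5 and HYH for degradation in the dark, and HY5 and HYH bind ACGT-containing motifs in the promoters of light-induced genes. ELIPs are thylakoid proteins related to the light-harvesting complex proteins, and their transcripts accumulate during greening and under excess light.

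In leaves, *ELIP1* and *ELIP2* transcripts were lower in FT than in GC in Col-0 and *met1-7*, while *PHYA* and *PIF4* were higher. The *ELIP1* and *PIF4* calls were less firm. In *met1-7* they were lost when certain single libraries were left out. In Col-0 they were lost in a fit to only the libraries compared. *HYH* and *COP1* were lower in FT in *met1-7*, the *COP1* call being lost when certain single libraries were left out. In *elp2-5* leaves 0 of 10 members passed the test of FT against GC. The FT responses of the genotypes were not shown to differ, since 0 of 10 members passed the interaction test in leaves of either mutant. The largest difference of any member lay between genotypes: *ELIP1* was 6.38-fold higher in *elp2-5* than in Col-0 leaves in FT and 4.46-fold higher in GC (ratios of mean FPKM), whereas *ELIP2* did not pass the test in either environment. In roots, *PIF4* and *PIF5* were close to absent and the mean ELIP levels stood higher than in leaves, though the organs were not tested against each other. The gap was smallest for *ELIP2* in *met1-7* GC, with means of 27.1 FPKM in roots and 23.0 FPKM in leaves and overlapping libraries.

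The libraries were first checked against their labels. *ELP2* lay between 3.24 and 3.99 FPKM in *elp2-5* leaves, against 7.38 to 9.13 FPKM in Col-0 leaves, and between 4.23 and 5.78 FPKM in *elp2-5* roots, against 10.7 to 14.8 FPKM in Col-0 roots, so those groups did not overlap. *MET1* lay between 10.8 and 15.2 FPKM in *met1-7* leaves, against 12.7 to 14.7 FPKM in Col-0 leaves, and between 11.6 and 20.4 FPKM in *met1-7* roots, against 16.96 to 19.98 FPKM in Col-0 roots. The *MET1* transcript level therefore does not tell the libraries labelled *met1-7* from wild type. Leaf markers (*RBCS1A*, *LHCB1.1*, *LHCA1* and *PSBO1*) summed to 20160 to 30470 FPKM in leaf libraries and 213.9 to 528 FPKM in root libraries. Root markers (*CASP1*, *COBL9*, *EXPA7*, *LRX1* and *IRT1*) summed to 240.2 to 469 FPKM in roots and 0.14 to 2.89 FPKM in leaves, where *IRT1* was listed at 0 in 16 of 24 libraries. The *elp2-5* GC root replicate 2 stood apart, with a sum of all FPKM of 938877, and results that rest on it are given with and without it. The depth behind each value is unknown, since FPKM carry no read counts. Relative depth, estimated from genes seen at one low level in a few libraries, spanned 0.862 to 1.17 among leaf libraries and 0.871 to 1.17 among root libraries. In such bulk samples, fewer cells of a type and less RNA per cell cannot be told apart.

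The levels of the members were set side by side in Col-0 GC, leaves and roots being separate tables that were not tested against each other. In leaves *HYH* was highest with 68.8 ± 11.9 FPKM (SD, n = 4), followed by *PIF5* with 57.9 ± 10.3 FPKM, whose libraries overlapped those of *HYH*. *PIF4*, *PHYA*, *HY5*, *ELIP2*, *PHYB* and *COP1* followed between 25.0 and 19.4 FPKM, each overlapping the next. *PIF3* averaged 15.3 ± 3.26 FPKM and overlapped both *COP1* above it and *ELIP1*, the lowest member with 11.02 ± 1.96 FPKM. The only gap without overlap between neighbours lay between *PIF5* and *PIF4*.

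The order was different in Col-0 GC roots. There *ELIP1* was highest with 74.5 ± 17.03 FPKM, and *HY5* with 67.5 ± 6.24, *HYH* with 51.2 ± 10.2 and *PHYA* with 49.2 ± 3.08 FPKM followed, each overlapping the next. *PHYA* stood clear of *ELIP2*, which averaged 32.1 ± 2.36 FPKM and overlapped *PHYB* at 28.8 ± 1.56 FPKM. *COP1* averaged 19.4 ± 0.857 FPKM and *PIF3* 3.27 ± 0.44 FPKM, each clear of its neighbours. *PIF4* at 0.29 ± 0.117 and *PIF5* at 0.282 ± 0.115 FPKM were lowest and overlapped. The mean in roots over that in leaves was 6.76 for *ELIP1*, 3.1 for *HY5*, 2.06 for *PHYA*, 1.61 for *ELIP2*, 1.46 for *PHYB*, 1.0 for *COP1* and 0.744 for *HYH*. For the PIFs it was 0.214 for *PIF3*, 0.0116 for *PIF4* and 0.00488 for *PIF5*.

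**Figure D1:**
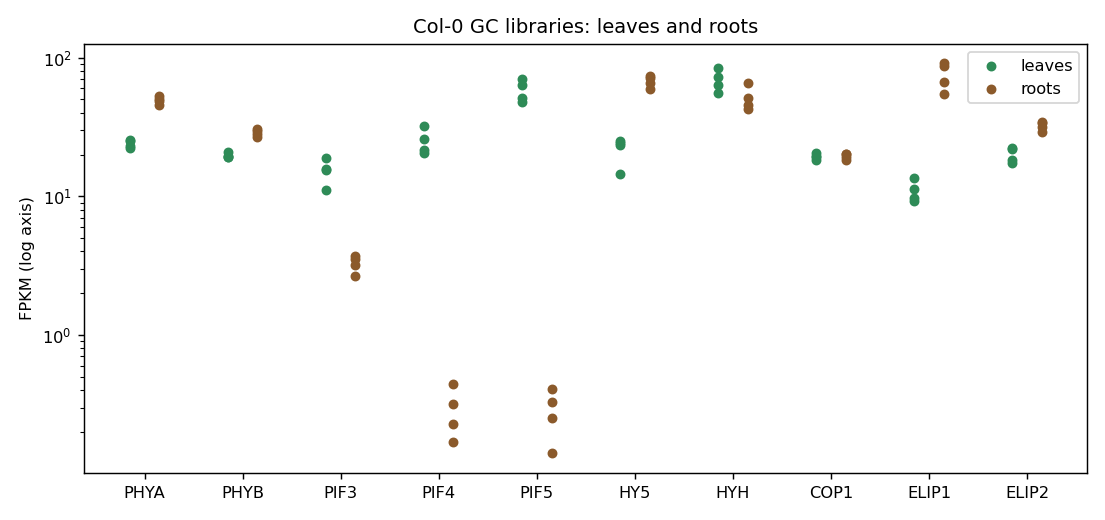
FPKM (log axis) of the 10 members in the 4 Col-0 GC libraries of leaves and of roots, 1 point per library. *PIF4* and *PIF5* lie below 1 FPKM in every root library shown, while *ELIP1* lies at 54.3 to 90.7 FPKM in roots and 9.29 to 13.6 FPKM in leaves.

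Members were tested with limma in a fit across 19877 genes in leaves and 21000 genes in roots, with p-values adjusted by Benjamini-Hochberg over all of them. A gene was tested where its FPKM was at least 1 in at least 4 of the 24 libraries of an organ. All 10 members met this in leaves and 8 of 10 in roots, where *PIF4* and *PIF5* fell below it. A member is said to have passed the test at an adjusted p under 0.05, and to be a DEG where its fold change was also at least 2 and FPKM were above 0 in both groups.

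Whether spaceflight changed these transcripts was asked within each genotype. In Col-0 leaves 4 of 10 members passed the test, 2 higher and 2 lower in FT, against 11.9% of all genes (8.71% higher and 3.15% lower). In *met1-7* leaves 6 of 10 passed, 2 higher and 4 lower, against 12.9% of all genes (9.53% higher and 3.38% lower). In *elp2-5* leaves 0 of 10 passed in limma, with 2 of 10, *PIF4* and *ELIP2*, at an unadjusted p under 0.05, against 0.8% of all genes at an adjusted p under 0.05. The FT responses of the mutants were not shown to differ from that of Col-0: in the interaction test 0 of 10 members passed in leaves for *elp2-5* (0.0151% of all genes) and 0 of 10 for *met1-7* (0% of all genes). Unadjusted interaction p-values were under 0.05 for 2 members in *elp2-5* leaves, *PHYA* and *ELIP1*, and for 1 member, *COP1*, in *met1-7* leaves.

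**Figure D2:**
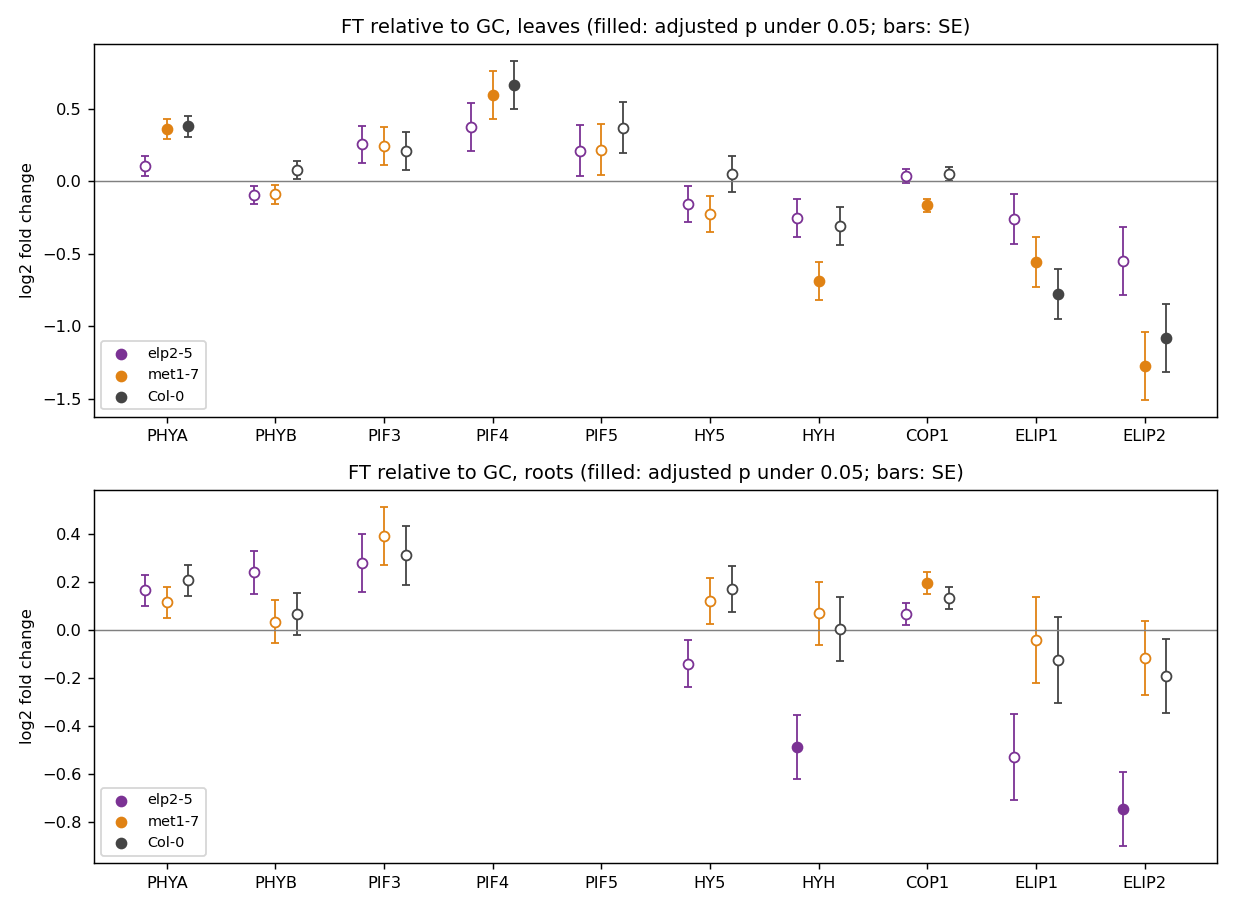
Log2 fold change of FT over GC for each member in *elp2-5*, *met1-7* and Col-0, in leaves (upper panel) and roots (lower panel); bars are SE, filled points passed the test (limma adjusted p under 0.05), and *PIF4* and *PIF5* were not tested in roots. *ELIP1* and *ELIP2* lie below 0 and *PIF4* above 0 in leaves of all 3 genotypes.

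*PHYA* (AT1G09570, chr1:3095160-3100819, gene coordinates of TAIR10.1, as for the other members) encodes the light-labile phytochrome that acts in far-red and very weak light. In Col-0 leaves it had 30.9, 30.4, 34.8 and 29.1 FPKM in FT, against 23.04, 22.3, 24.98 and 25.4 FPKM in GC, a log2 fold change 0.38 ± 0.07 (SE, n = 4 each, limma adjusted p = 0.00244). All Col-0 FT libraries lay above all Col-0 GC libraries. In *met1-7* leaves it had 35.8, 35.99, 31.9 and 29.9 FPKM in FT, against 24.8, 23.7, 28.2 and 26.8 FPKM in GC, again without overlap, a log2 fold change 0.36 ± 0.07 (SE, n = 4 each, limma adjusted p = 0.0027). In *elp2-5* leaves it had 31.2, 30.3, 33.1 and 30.7 FPKM in FT, against 30.2, 31.1, 28.2 and 27.04 FPKM in GC, where the groups overlapped and the test was not passed (log2 fold change 0.11, adjusted p = 0.52). The *elp2-5* GC libraries of *PHYA* were all above those of Col-0 GC, whereas the FT libraries of these genotypes overlapped.

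*PHYB* (AT2G18790, chr2:8139756-8144461) encodes the light-stable phytochrome that dominates in red light. It did not pass the test of FT against GC in any genotype in leaves or roots, with log2 fold changes from -0.09 in *elp2-5* leaves to 0.24 in *elp2-5* roots. That of roots passed without GC replicate 1 (0.29, adjusted p = 0.049) and was 0.10 without GC replicate 2. Its differences lay between genotypes. In leaves *PHYB* had 27.7, 27.8, 29.4 and 27.2 FPKM in *elp2-5* GC, against 19.2, 20.9, 19.3 and 19.6 FPKM in Col-0 GC, with no overlap and a log2 fold change 0.49 ± 0.06 (SE, n = 4 each, limma adjusted p = 2.82e-06). In FT it had 23.99, 26.5, 28.3 and 26.1 FPKM in *elp2-5*, against 20.1, 24.2, 18.7 and 20.9 FPKM in Col-0. There the lowest *elp2-5* library lay just under the highest Col-0 library, and the difference was a log2 fold change 0.32 ± 0.06 (SE, n = 4 each, limma adjusted p = 0.000313).

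In roots *PHYB* had 40.9, 42.6, 37.96 and 40.5 FPKM in *elp2-5* FT, against 29.9, 30.7, 28.96 and 31.1 FPKM in Col-0 FT, without overlap, a log2 fold change 0.42 ± 0.09 (SE, n = 4 each, limma adjusted p = 0.000805). In GC it had 38.2, 25.2, 36.5 and 38.7 FPKM in *elp2-5*, against 29.5, 28.3, 30.5 and 26.9 FPKM in Col-0. Replicate 2 of *elp2-5* GC, the library that stands apart, was below all Col-0 GC libraries and the other 3 were above them. The *PHYB* difference in GC roots was a log2 fold change 0.25 ± 0.09 (SE, n = 4 each, limma adjusted p = 0.0318) over all libraries and 0.39, adjusted p = 3.96e-06, without that library. It fell short of the threshold without *elp2-5* GC replicate 1, 3 or 4 or Col-0 GC replicate 2 or 4, with log2 fold changes from 0.19 to 0.24. *PHYB* was also higher in *met1-7* GC leaves, with 23.8, 26.9, 25.2 and 25.2 FPKM, against 19.2, 20.9, 19.3 and 19.6 FPKM in Col-0 GC leaves, a log2 fold change 0.35 ± 0.06 (SE, n = 4 each, limma adjusted p = 0.000805) without overlap. In FT leaves the same difference was 0.18 and did not pass (adjusted p = 0.0929), though it did without Col-0 FT replicate 2 (0.25, adjusted p = 0.00845).

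The *PHYB* promoter is shown because it held the most G-boxes (CACGTG, a motif bound by both PIFs and HY5) among the members. In the 250 bases before the gene start in the RefSeq annotation of TAIR10.1, on the plus strand at chr2:8139506-8139755, 2 G-boxes stood in capitals, starting 146 and 111 bases upstream.
PHYB: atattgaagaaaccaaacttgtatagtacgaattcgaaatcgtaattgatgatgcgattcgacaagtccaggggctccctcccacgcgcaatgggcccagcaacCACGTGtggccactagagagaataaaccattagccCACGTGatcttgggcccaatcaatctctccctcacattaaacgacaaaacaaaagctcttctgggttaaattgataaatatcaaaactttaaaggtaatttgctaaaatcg
A G-box was present in the same window of 6.49% of 27443 protein-coding genes and in 3 of 10 members, *PHYB*, *PIF5* and *ELIP1*. The ACGT core alone, which every G-box contains, was present in 44.1% of genes and in 8 of 10 members. Motifs were searched on both strands, and a match describes these letters only.

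The PIF genes encode factors that accumulate when phytochrome is inactive. *PIF4* (AT2G43010, chr2:17886101-17889087) had 43.8, 33.2, 40.99 and 40.3 FPKM in Col-0 FT leaves, against 21.5, 20.7, 26.1 and 31.96 FPKM in Col-0 GC leaves, a log2 fold change 0.66 ± 0.17 (SE, n = 4 each, limma adjusted p = 0.0132). All FT libraries were above all GC libraries. Without Col-0 GC replicate 1 the adjusted p was 0.05 (log2 fold change 0.60). In *met1-7* leaves *PIF4* had 39.5, 39.1, 28.6 and 34.5 FPKM in FT, against 21.6, 18.5, 27.4 and 25.9 FPKM in GC, a log2 fold change 0.60 ± 0.17 (SE, n = 4 each, limma adjusted p = 0.0224), also without overlap. That call was lost without *met1-7* FT replicate 1 or 2 or GC replicate 1 or 2, with log2 fold changes from 0.49 to 0.56, and under median-ratio scaling (0.52) and quantile normalization (0.53). In *elp2-5* leaves the values were 44.8, 37.5, 31.1 and 26.9 FPKM in FT, against 22.3, 24.7, 27.7 and 31.9 FPKM in GC, which overlapped (log2 fold change 0.38, adjusted p = 0.297).

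*PIF5* (AT3G59060, chr3:21827905-21830837), the closest relative of *PIF4* among all transcripts by sequence (70.0% identity over 791 bases), was the more abundant of the pair in leaves. In Col-0 leaves it had 93.6, 69.5, 68.6 and 66.97 FPKM in FT, against 47.6, 51.05, 63.1 and 69.7 FPKM in GC. Replicate 1 of Col-0 FT was far above the rest, the groups overlapped, and the test was not passed (log2 fold change 0.37, adjusted p = 0.176). *PIF5* had the same sign in *elp2-5* (0.21) and *met1-7* leaves (0.22), and neither passed. *PIF3* (AT1G09530, chr1:3075768-3079654), which lay between 11.0 and 20.7 FPKM over the 24 leaf libraries, likewise had log2 fold changes of 0.25, 0.24 and 0.21 in *elp2-5*, *met1-7* and Col-0 leaves, and none passed. None of *PIF3*, *PIF4* and *PIF5* passed the test of a mutant against Col-0 in leaves, nor did *PIF3* in roots.

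In roots *PIF4* was between 0.12 and 1.44 FPKM and *PIF5* between 0.14 and 0.69 FPKM. The highest *PIF4* values there were those of *met1-7* FT roots, 1.03, 0.55, 0.64 and 1.44 FPKM, against 0.33, 0.66, 0.4 and 0.31 FPKM in Col-0 FT roots, and these groups overlapped. *PIF3* in roots had log2 fold changes of FT over GC of 0.28 in *elp2-5*, 0.39 in *met1-7* and 0.31 in Col-0, with adjusted p-values of 0.155, 0.0995 and 0.162 in limma.

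**Figure D3:**
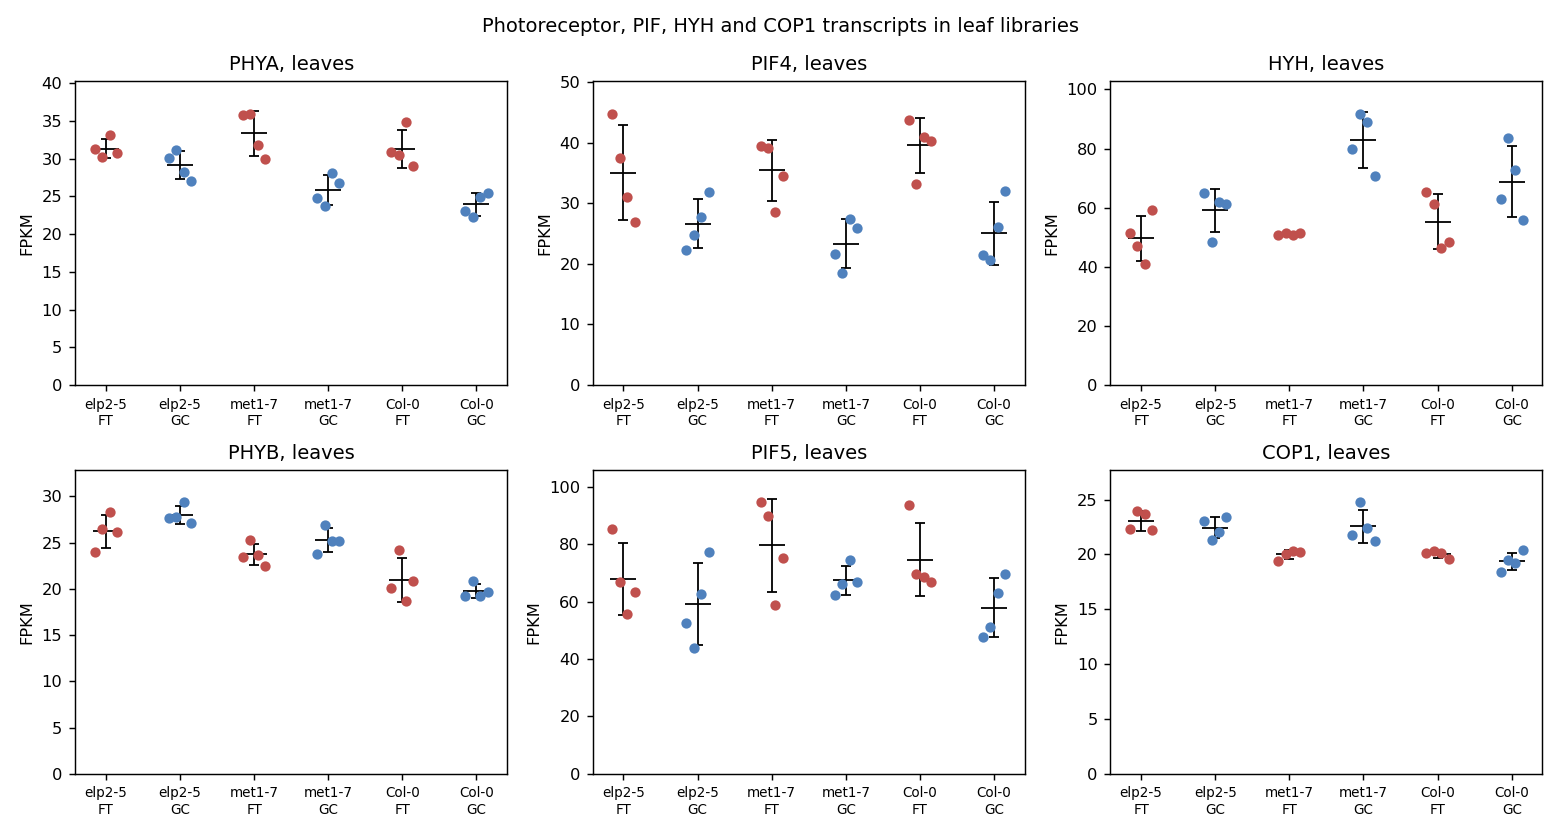
FPKM of *PHYA*, *PIF4*, *HYH*, *PHYB*, *PIF5* and *COP1* in each leaf library, with 4 points per group (red FT, blue GC), the mean as a line and the SD as a bar. *PHYA* and *PIF4* lie higher in FT than in GC without overlap in *met1-7* and Col-0, and *HYH* lies lower in FT without overlap in *met1-7*.

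*COP1* (AT2G32950, chr2:13977881-13983609) lay between 18.4 and 24.8 FPKM in leaves and 18.3 and 24.95 FPKM in roots. In *met1-7* leaves it had 19.4, 20.03, 20.4 and 20.2 FPKM in FT, against 21.8, 24.8, 22.4 and 21.2 FPKM in GC, a log2 fold change -0.17 ± 0.05 (SE, n = 4 each, limma adjusted p = 0.0222) without overlap. The call was lost without *met1-7* FT replicate 1 (-0.15) or GC replicate 2 (-0.12). In *met1-7* roots the difference had the other sign, with 22.4, 24.9, 23.1 and 23.6 FPKM in FT, against 20.4, 21.03, 21.1 and 19.3 FPKM in GC, a log2 fold change 0.20 ± 0.05 (SE, n = 4 each, limma adjusted p = 0.0444). It was the only member called there, 1 of 8 against 1.19% of all genes, and the call survived the removal of only 1 of the 8 libraries compared, FT replicate 3, and neither scaling. In the tests of FT against GC in Col-0 roots 0 of 8 members passed in limma, against 2.9% of all genes, with *PHYA*, *PIF3* and *COP1* at an unadjusted p under 0.05.

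*COP1* was higher in *elp2-5* than in Col-0 in all 4 comparisons, by log2 fold changes between 0.18 and 0.25. In *elp2-5* GC roots it had 23.4, 22.6, 24.1 and 22.3 FPKM, against 20.04, 19.2, 20.1 and 18.3 FPKM in Col-0 GC roots, a log2 fold change 0.25 ± 0.05 (SE, n = 4 each, limma adjusted p = 0.000304) without overlap. In leaves, where the log2 fold changes were 0.20 in FT and 0.21 in GC, the median of all genes was itself shifted by 0.12 in FT and 0.14 in GC. Relative to that median *COP1* was higher by 0.07 in both environments, and with median-ratio scaling or quantile normalization it no longer passed. Relative to the same medians *PHYB* was higher by 0.20 in FT and 0.35 in GC, and it passed under both scalings. *PHYA* was higher by 0.14 in *elp2-5* GC leaves on that scale, from a log2 fold change of 0.28, and passed under neither. *COP1* was also higher in *met1-7* GC leaves than in Col-0 GC leaves, by a log2 fold change 0.21 ± 0.05 (SE, n = 4 each, limma adjusted p = 0.0033). The same *met1-7* GC libraries entered the test of FT against GC in *met1-7* leaves, so these results are not independent.

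*HY5* (AT5G11260, chr5:3593335-3595073) and *HYH* (AT3G17609, chr3:6023844-6024710) encode related bZIP factors that act in part redundantly. *HYH* had 50.8, 51.4, 50.7 and 51.3 FPKM in *met1-7* FT leaves, against 79.97, 91.8, 89.03 and 70.7 FPKM in *met1-7* GC leaves, a log2 fold change -0.69 ± 0.13 (SE, n = 4 each, limma adjusted p = 0.00257). The 4 FT libraries were within 1 FPKM of each other and well below all GC libraries, and the call was kept with any of the 8 libraries left out. In Col-0 leaves *HYH* had 65.2, 61.4, 46.5 and 48.2 FPKM in FT, against 62.98, 83.4, 72.7 and 55.98 FPKM in GC, which overlapped (log2 fold change -0.31, adjusted p = 0.125). In *elp2-5* leaves it had 51.4, 46.9, 41.03 and 59.3 FPKM in FT, against 64.8, 48.5, 62.01 and 61.3 FPKM in GC, which overlapped as well (log2 fold change -0.25, adjusted p = 0.387). The difference between the *met1-7* and Col-0 responses of *HYH* was -0.37 and did not pass (adjusted p = 0.491).

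*HYH* also separated environments in *elp2-5* roots. It had 49.7, 62.9, 47.8 and 45.9 FPKM in FT, against 62.3, 87.9, 75.2 and 64.99 FPKM in GC, where FT replicate 2 lay just above the lowest GC library. The difference was a log2 fold change -0.49 ± 0.13 (SE, n = 4 each, limma adjusted p = 0.0327), and 2 of 8 members, *HYH* and *ELIP2*, passed in that comparison, both lower, against 6.78% of all genes in either direction and 3.21% lower. The *HYH* call was lost without *elp2-5* FT replicate 1, 3 or 4 or GC replicate 2 or 3. Without GC replicate 2, the library that stands apart, it was -0.39, adjusted p = 0.119. Against Col-0 GC roots, with 45.3, 42.8, 51.02 and 65.7 FPKM, *HYH* was higher in *elp2-5* GC roots by a log2 fold change 0.51 ± 0.13 (SE, n = 4 each, limma adjusted p = 0.00438), with 1 Col-0 library inside the *elp2-5* range, and by 0.41, adjusted p = 0.0209, without that library.

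*HY5* did not pass the test of FT against GC in either organ. In leaves its log2 fold changes were -0.15 in *elp2-5*, -0.23 in *met1-7* and 0.05 in Col-0, the last being -0.13 without the low Col-0 GC replicate 4. It passed against Col-0 only in FT roots of *elp2-5*, with 58.4, 68.98, 63.2 and 59.1 FPKM, against 69.3, 81.04, 78.9 and 74.3 FPKM in Col-0 FT roots, a log2 fold change -0.28 ± 0.10 (SE, n = 4 each, limma adjusted p = 0.0258). The groups touched without overlapping, at 68.98 and 69.3 FPKM. The call was lost without Col-0 FT replicate 2 or 3 or *elp2-5* FT replicate 1 or 4, with log2 fold changes from -0.26 to -0.25.

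The promoters of *ELIP1* and *ELIP2* are shown because these relatives, at 73.6% identity over 610 bases of transcript, parted in leaves of the *elp2-5* mutant. *ELIP1* (AT3G22840, chr3:8084405-8085669) lies on the minus strand and its 250 bases before the RefSeq gene start are at chr3:8085670-8085919 of TAIR10.1. *ELIP2* (AT4G14690, chr4:8418242-8419325) lies on the plus strand, with its window at chr4:8417992-8418241. Capitals mark a G-box (CACGTG), which *ELIP1* has starting 66 bases upstream and the *ELIP2* window lacks.
ELIP1: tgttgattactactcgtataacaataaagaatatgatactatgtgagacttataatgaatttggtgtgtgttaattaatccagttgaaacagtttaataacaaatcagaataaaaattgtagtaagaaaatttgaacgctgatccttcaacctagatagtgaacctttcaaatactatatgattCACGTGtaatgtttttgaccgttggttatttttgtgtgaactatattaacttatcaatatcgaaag
ELIP2: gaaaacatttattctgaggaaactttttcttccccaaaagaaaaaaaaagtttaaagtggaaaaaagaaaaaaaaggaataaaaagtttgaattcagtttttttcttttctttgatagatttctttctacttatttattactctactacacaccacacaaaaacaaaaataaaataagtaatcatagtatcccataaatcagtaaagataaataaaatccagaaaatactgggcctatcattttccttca
The *ELIP2* window also holds no ACGT core. The E-box CACATG, another motif bound by PIFs, was present in 11.1% of all windows and in neither ELIP window. Whether any of these motifs has a part in the levels of either gene was not tested.

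In Col-0 leaves *ELIP1* had 6.71, 7.94, 4.45 and 6.01 FPKM in FT, against 9.29, 13.6, 11.4 and 9.79 FPKM in GC, a log2 fold change -0.78 ± 0.17 (SE, n = 4 each, limma adjusted p = 0.00703). *ELIP2* had 13.8, 7.79, 7.16 and 8.99 FPKM in Col-0 FT leaves, against 18.4, 21.9, 22.3 and 17.4 FPKM in Col-0 GC leaves, a log2 fold change -1.08 ± 0.23 (SE, n = 4 each, limma adjusted p = 0.0062). Both were lower in every FT library than in any GC library, and both calls were kept with any of the 8 libraries left out. *ELIP2* was a DEG, as were 0.247% of all genes. *met1-7* leaves showed the same directions. There *ELIP1* had 5.88, 8.12, 9.66 and 7.20 FPKM in FT, against 10.3, 11.6, 13.2 and 10.8 FPKM in GC, a log2 fold change -0.56 ± 0.17 (SE, n = 4 each, limma adjusted p = 0.0371), and *ELIP2* had 8.35, 8.67, 11.7 and 7.85 FPKM in FT, against 18.3, 28.1, 27.5 and 18.2 FPKM in GC, a log2 fold change -1.27 ± 0.23 (SE, n = 4 each, limma adjusted p = 0.00218). No groups overlapped, as was the case for 19.5% of all genes in *met1-7* leaves and 15.1% in Col-0 leaves. *ELIP2* was again a DEG, as were 0.352% of all genes, and its call was kept with any library left out, whereas the *ELIP1* call was kept only without *met1-7* FT replicate 3 or GC replicate 1 (log2 fold changes from -0.59 to -0.44 without each of the others).

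In *elp2-5* leaves *ELIP2* had 17.7, 9.81, 8.49 and 12.9 FPKM in FT, against 17.5, 13.97, 25.8 and 14.8 FPKM in GC. FT replicate 1 lay among the GC libraries and the test was not passed (log2 fold change -0.55, adjusted p = 0.279). *ELIP1* had 40.8, 38.6, 41.98 and 38.7 FPKM in FT, against 55.7, 33.7, 59.8 and 47.3 FPKM in GC. GC replicate 2 was below all FT libraries, the groups overlapped, and the test was not passed (log2 fold change -0.26, adjusted p = 0.518). The interaction contrasts for *elp2-5* leaves were 0.52 for *ELIP1* and 0.53 for *ELIP2*, with adjusted p-values of 0.503 and 0.633 in limma.

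**Figure D4:**
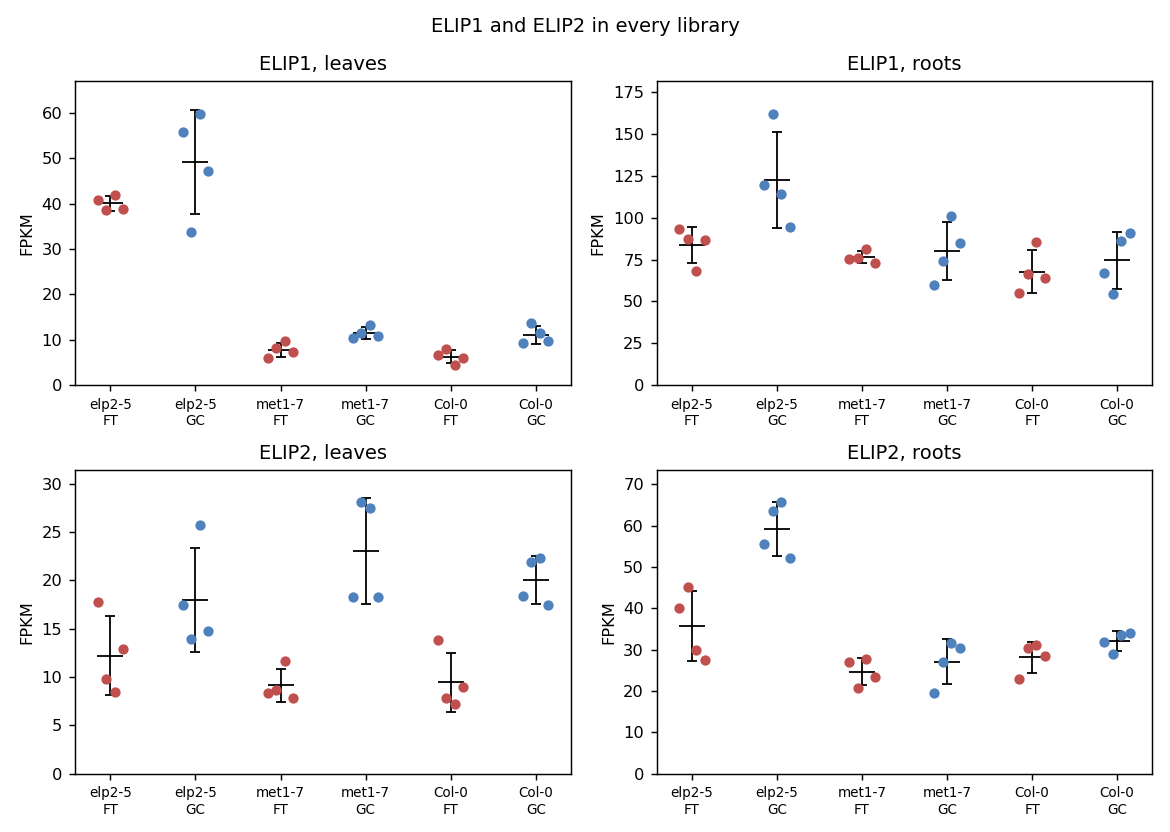
FPKM of *ELIP1* and *ELIP2* in every library of leaves (left) and roots (right), with 4 points per group (red FT, blue GC), the mean as a line and the SD as a bar. *ELIP1* is at 33.7 to 59.8 FPKM in *elp2-5* leaves and below 14 FPKM in all other leaf libraries, while *ELIP2* in *elp2-5* leaves overlaps Col-0.

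Which transcripts depended on genotype was asked in each environment, against the same Col-0 libraries that enter the Col-0 test of FT against GC. The libraries of each mutant likewise enter its own test of FT against GC, in leaves and in roots. In *elp2-5* leaves 3 of 10 members passed in FT, *ELIP1*, *PHYB* and *COP1*, and 4 of 10 in GC, the same members and *PHYA*, all higher in *elp2-5*, against 35.5% of all genes called higher in FT and 37.6% in GC. In either direction the shares of all genes called were 50.4% and 51.6%. The members' counts lay close to the shares called higher and below the shares called in either direction. *ELIP1* stood out by size. It had 40.8, 38.6, 41.98 and 38.7 FPKM in *elp2-5* FT leaves, against 6.71, 7.94, 4.45 and 6.01 FPKM in Col-0 FT leaves, a log2 fold change 2.60 ± 0.17 (SE, n = 4 each, limma adjusted p = 1.08e-09). In GC it had 55.7, 33.7, 59.8 and 47.3 FPKM in *elp2-5*, against 9.29, 13.6, 11.4 and 9.79 FPKM in Col-0, a log2 fold change 2.09 ± 0.17 (SE, n = 4 each, limma adjusted p = 1.37e-08). Every *elp2-5* leaf library was above every library of the other genotypes. *ELIP1* was the only DEG among the members in these comparisons, where 5.94% of all genes were DEGs in FT and 5.51% in GC.

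*ELIP2* did not follow. It differed by 0.35 in FT (adjusted p = 0.227) and by -0.18 in GC (adjusted p = 0.539) between *elp2-5* and Col-0 leaves in limma, and the groups overlapped in both. The ratio of *ELIP1* to *ELIP2* FPKM, a comparison chosen after the values were seen, averaged 3.55 ± 1.15 in *elp2-5* FT leaves, against 0.699 ± 0.227 in Col-0 FT leaves (SD, n = 4 each), and 2.78 ± 0.479 in *elp2-5* GC leaves, against 0.55 ± 0.0543 in Col-0 GC leaves. The log2 ratio differed by 2.34 in FT and 2.33 in GC, each with a two-sided exact permutation p = 0.0286, the smallest that 4 against 4 libraries allow, and 0.0572 after adjustment over 8 such comparisons. In roots the log2 ratio differed between *elp2-5* and Col-0 by -0.0038 in FT and -0.16 in GC, which did not pass (exact permutation p = 1.0 and 0.314). In *met1-7* roots it was higher than in Col-0 roots by 0.38 in FT and 0.37 in GC (exact permutation p = 0.0286 each, adjusted 0.0572). No other transcript was near-identical to that of any member, the limits being 95% identity and 80% coverage of the shorter one.

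In roots *PHYB* and *COP1* again passed between *elp2-5* and Col-0 in both environments. In GC 5 of 8 members passed, *PHYB*, *HYH*, *COP1*, *ELIP1* and *ELIP2*, all higher in *elp2-5*, against 18.9% of all genes called higher and 38.7% called in either direction. *ELIP2* had 55.5, 63.5, 65.7 and 52.1 FPKM in *elp2-5* GC roots, against 31.8, 28.9, 33.6 and 34.1 FPKM in Col-0 GC roots, a log2 fold change 0.87 ± 0.15 (SE, n = 4 each, limma adjusted p = 0.000154). *ELIP1* had 119.6, 162, 114 and 94.2 FPKM in *elp2-5* GC roots, against 66.8, 54.3, 86.3 and 90.7 FPKM in Col-0 GC roots, a log2 fold change 0.72 ± 0.18 (SE, n = 4 each, limma adjusted p = 0.00325). Neither overlapped, and the highest *ELIP1* value belonged to the replicate that stands apart. Without it *ELIP1* differed by 0.57, adjusted p = 0.0161, and *ELIP2* by 0.83, adjusted p = 0.00076. *PHYA*, which did not pass over all libraries (log2 fold change 0.16, adjusted p = 0.0523), passed without it (0.24, adjusted p = 0.000945) and without Col-0 GC replicate 1 (0.19, adjusted p = 0.0327).

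In FT roots 3 of 8 members passed between *elp2-5* and Col-0, *PHYB* and *COP1* higher and *HY5* lower, against 36.7% of all genes (15.6% higher and 21.2% lower). *ELIP1* (0.31) and *ELIP2* (0.32) did not pass there, although *ELIP2* did without *elp2-5* FT replicate 4 (0.43, adjusted p = 0.0387). Within *elp2-5* roots *ELIP2* had 40.2, 45.3, 29.99 and 27.4 FPKM in FT, against 55.5, 63.5, 65.7 and 52.1 FPKM in GC, a log2 fold change -0.75 ± 0.15 (SE, n = 4 each, limma adjusted p = 0.0105) without overlap, and -0.71 (adjusted p = 0.0327) without the replicate that stands apart. *ELIP1* had 93.3, 87.4, 68.01 and 86.5 FPKM in *elp2-5* FT roots, against 119.6, 162, 114 and 94.2 FPKM in *elp2-5* GC roots, which did not overlap, but it did not pass (log2 fold change -0.53, adjusted p = 0.0741). It passed without GC replicate 4 (-0.65, adjusted p = 0.0405). The interaction tests in roots had 0 of 8 members past the threshold for *elp2-5* and 0 of 8 for *met1-7* in limma (0% of all genes in both), with *HY5*, *HYH* and *ELIP2* for *elp2-5* and no member for *met1-7* at an unadjusted p under 0.05.

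Against Col-0, *met1-7* differed in 2 of 10 members in GC leaves, *PHYB* and *COP1*, both higher, where 15.6% of all genes passed (7.4% higher). *HY5* did not pass there (log2 fold change 0.31, adjusted p = 0.0892) but did without Col-0 GC replicate 3 (0.39, adjusted p = 0.0467). In FT leaves 0 of 10 passed in limma (7.44% of all genes, and 1 member, *PHYB*, at an unadjusted p under 0.05). In roots 0 of 8 passed in FT (5.43% of all genes, with *COP1* at an unadjusted p under 0.05) and 0 of 8 in GC (7.6%, with *PHYA* at an unadjusted p under 0.05).

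**Figure D5:**
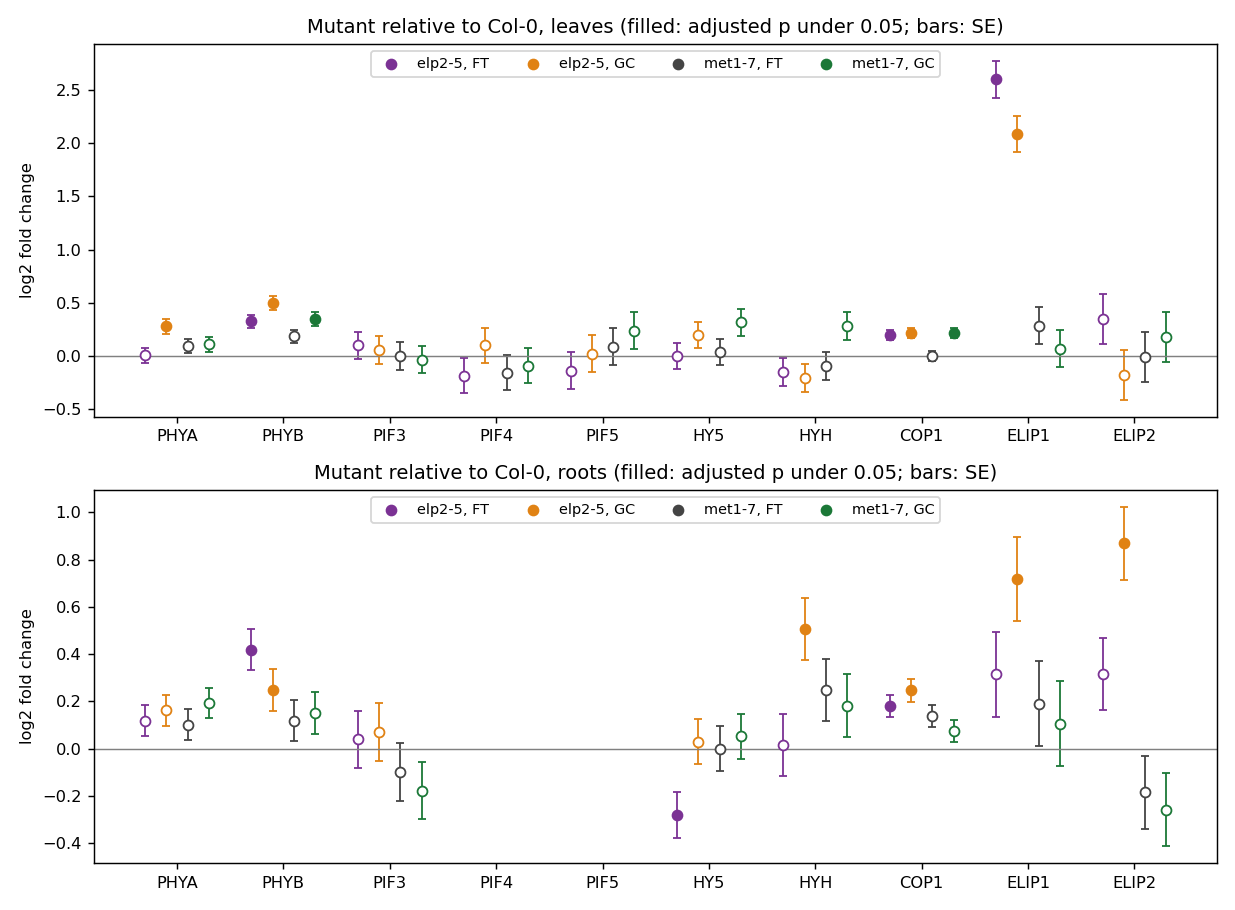
Log2 fold change of each mutant over Col-0 for each member in FT and GC, in leaves (upper panel) and roots (lower panel); bars are SE and filled points passed the test (limma adjusted p under 0.05). *ELIP1* in *elp2-5* leaves, at 2.60 in FT and 2.09 in GC, lies above every other point.

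Genes that act with the members were counted from lists by known role, which were chosen with earlier results of these data known. Their counts beside the shares of all genes, here and below, are therefore a description and not an independent test. Of 11 other photoreceptor genes, 5 were higher and 0 lower in Col-0 FT leaves than in GC, against 8.71% and 3.15% of all genes. Under median-ratio scaling and quantile normalization 3 and 4 were higher. The median log2 fold change was 0.14, against 0.05 over all genes. The largest were *PHOT1*, a blue light receptor of phototropism (log2 fold change 0.42, adjusted p = 6.39e-05), and *ZTL*, a blue light receptor that targets clock proteins (log2 fold change 0.22, adjusted p = 0.0048). In *met1-7* leaves 2 of 11 were higher in FT, against 9.53% of all genes. They were *CRY2* (log2 fold change 0.24, adjusted p = 0.00305) and *PHOT1* (log2 fold change 0.18, adjusted p = 0.0137). *PHOT1* did not pass under either scaling or without *met1-7* FT replicate 2. In *elp2-5* leaves 0 of 11 passed. *PHYD*, the closest relative of *PHYB* (81.1% identity over 3097 bases of transcript), was higher in *elp2-5* than in Col-0 leaves in FT (log2 fold change 0.81, adjusted p = 0.00125) and GC (log2 fold change 0.63, adjusted p = 0.00835), and in *met1-7* leaves in FT (log2 fold change 0.88, adjusted p = 0.00524) and GC (log2 fold change 0.78, adjusted p = 0.00721). In roots *PHYD* was higher than in Col-0 in both mutants. In *elp2-5* the log2 fold changes were 0.72 in FT and 0.41 in GC. The GC call was lost without Col-0 GC replicate 4 or *elp2-5* GC replicate 1 or 4. In *met1-7* roots they were 0.51 in FT (limma adjusted p = 0.0259) and 0.46 in GC (limma adjusted p = 0.0383). *PHOT1* was lower in *elp2-5* roots (-0.86 in FT and -0.48 in GC).

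Among 4 genes for phyA nuclear import and its transcription factors, 2 were higher in *met1-7* FT leaves than in GC, against 9.53% of all genes. They were *FHY1* (log2 fold change 0.45, adjusted p = 0.0027) and *FHY3* (log2 fold change 0.15, adjusted p = 0.0267). In Col-0 FT leaves 1 was higher, *FHY3* (log2 fold change 0.16, adjusted p = 0.0156), against 8.71% of all genes. *FHY3* passed in neither genotype under either scaling. Its *met1-7* call was also lost without FT replicate 2 or 4 or GC replicate 2 or 3, and its Col-0 call without FT replicate 2 or GC replicate 3. *FHL*, the paralog of *FHY1*, was lower in *met1-7* than in Col-0 in FT leaves (log2 fold change -0.85, adjusted p = 0.018), GC leaves (log2 fold change -0.82, adjusted p = 0.0119), FT roots (log2 fold change -1.08, adjusted p = 0.0132) and GC roots (log2 fold change -1.08, adjusted p = 0.0107). Its calls were lost in FT leaves without *met1-7* FT replicate 2 or Col-0 FT replicate 3 or 4, in GC leaves without Col-0 GC replicate 4, and in FT roots without *met1-7* or Col-0 FT replicate 2. *FHL* was higher in *elp2-5* FT leaves (log2 fold change 1.07, adjusted p = 0.000325). Its ratios of mean FPKM were 0.383, 0.414, 0.429 and 0.38 in *met1-7* FT leaves, GC leaves, FT roots and GC roots. In *elp2-5* FT leaves the ratio was 2.49. These are larger changes than the fitted ones. The 0.5 added to FPKM shrinks differences at low levels. Of 7 other PIFs and PIF antagonists, *HFR1*, which forms inactive dimers with PIFs, was higher in FT in Col-0 leaves (log2 fold change 0.70, adjusted p = 0.0436), *met1-7* leaves (log2 fold change 0.93, adjusted p = 0.00907) and Col-0 roots (log2 fold change 0.72, adjusted p = 0.00994), the first of these not passing under either scaling or without Col-0 FT replicate 1, 3 or 4 or GC replicate 1, 2 or 3, and the last not without Col-0 FT replicate 2. *PAR1*, another helix-loop-helix inhibitor of PIFs, was lower in *elp2-5* than in Col-0 leaves (log2 fold change -1.18 in FT and -1.23 in GC). It was also lower in *elp2-5* roots (log2 fold change -1.10 in FT and -0.54 in GC), where the GC call was lost without *elp2-5* GC replicate 3 or 4 or Col-0 GC replicate 1, 2 or 3. *HFR1* was lower in *elp2-5* than in Col-0 FT roots (log2 fold change -1.27, adjusted p = 5.29e-07). Its ratios of mean FPKM, FT over GC, were 1.95 in Col-0 leaves and 2.42 in *met1-7* leaves, again larger changes than the fitted ones. *PIF8*, another phytochrome-interacting factor, was lower in FT than in GC in *met1-7* leaves (log2 fold change -0.60, adjusted p = 0.00668) and higher in *elp2-5* than in Col-0 GC roots (log2 fold change 1.30, adjusted p = 4.21e-05), with a log2 fold change of 1.32 without the *elp2-5* replicate that stands apart. It was also higher in *met1-7* than in Col-0 GC leaves (log2 fold change 0.42, adjusted p = 0.0385), a call lost without *met1-7* GC replicate 1, 2 or 3 or Col-0 GC replicate 1, 3 or 4 and under quantile normalization. In *elp2-5* roots 1 of 6 tested was higher and 3 were lower than in Col-0 in each environment. Of all genes, 15.6% were called higher and 21.2% lower in FT roots, and 18.9% higher and 19.8% lower in GC roots.

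Downstream, 8 HY5 and UV-B targets were followed, chiefly flavonoid genes. In *elp2-5* leaves 5 were higher and 1 lower than in Col-0 in FT, and 5 were higher and 2 lower in GC, with medians of 1.16 and 1.07, against 0.12 and 0.14 over all genes. Of all genes, 35.5% were called higher and 14.9% lower in FT, and 37.6% higher and 14.1% lower in GC. In *elp2-5* roots 0 of 8 were higher and 3 were lower than in Col-0 in FT, and 0 were higher and 2 lower in GC (medians -0.12 and 0.13), against 21.2% and 19.8% of all genes called lower. *RUP2*, a repressor of the UV-B receptor, was lowest there (log2 fold change -0.64 in FT and -0.53 in GC), followed by its paralog *RUP1* (-0.59 and -0.44). In leaves *CHS*, the first enzyme of flavonoid synthesis, rose most (log2 fold change 2.80, adjusted p = 1.45e-07 in FT and log2 fold change 2.31, adjusted p = 1.31e-06 in GC), followed by *F3H* (log2 fold change 2.38, adjusted p = 3.07e-06 in FT and log2 fold change 2.08, adjusted p = 1.34e-05 in GC). In *met1-7* leaves 5 of 8 were lower in FT than in GC (median -0.52, against 0.07 over all genes), where 3.38% of all genes were called lower. The largest changes were those of *F3H* (log2 fold change -1.16, adjusted p = 0.0163) and *FLS1* (log2 fold change -1.02, adjusted p = 0.0203). The *F3H* call was lost without *met1-7* FT replicate 2, and that of *FLS1* without FT or GC replicate 1 or 2. In Col-0 leaves, where the median of the list was -0.33, 1 of 8, *CHI*, was lower in FT (log2 fold change -0.53, adjusted p = 0.0405). That call was lost without Col-0 FT replicate 2, 3 or 4 or GC replicate 1, 2 or 3. In *elp2-5* leaves 0 of 8 passed. These responses were not shown to differ, with 0 of 8 past the interaction test in leaves of either mutant.

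Of 7 relatives of the ELIPs in the chlorophyll-binding family, 4 were lower in FT in Col-0 leaves (median -0.17, against 0.05 over all genes). In Col-0, 4 were lower under median-ratio scaling and 1 under quantile normalization. Likewise 4 were lower in *met1-7* leaves (median -0.23, against 0.07). Of all genes, 3.15% were called lower in Col-0 leaves and 3.38% in *met1-7* leaves. In both, *OHP1*, a protein required for photosystem II assembly, had the lowest log2 fold change, -0.34 in *met1-7* and -0.26 in Col-0, where its call was lost under quantile normalization and without FT replicate 2 or 3 or GC replicate 1 or 2. Against Col-0, 6 of 7 were lower in *elp2-5* FT leaves and 5 of 7 in *elp2-5* GC leaves, against 14.9% and 14.1% of all genes called lower, the reverse of *ELIP1*, with *OHP1* at -0.61 in FT and -0.79 in GC. In *elp2-5* roots 3 of 7 in FT and 2 of 7 in GC were lower than in Col-0, against 21.2% and 19.8% of all genes. The leaf marker sum moved with these groups: it was 20160 to 25240 FPKM in *elp2-5* FT leaves, against 24220 to 29650 FPKM in Col-0 FT leaves, and 22440 to 25980 FPKM in *elp2-5* GC leaves, against 29350 to 30330 FPKM in Col-0 GC leaves. Of the 4 markers 2 were lower in *elp2-5* in each environment. In Col-0 leaves the median marker sum was 26070 FPKM in FT and 29640 FPKM in GC. There the marker *RBCS1A* was lower in FT (log2 fold change -0.31, limma adjusted p = 0.00322). Between FT and GC 0 of 4 markers passed in *elp2-5* leaves and 0 of 4 in *met1-7* leaves. The part of the markers in these results was not tested, the ELIP differences between FT and GC included.

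Of 8 targets of PIFs and shade, 7 were tested in leaves, and their median log2 fold change of FT over GC was 0.31 in *met1-7* and 0.31 in Col-0, against 0.07 and 0.05 over all genes. *CKX5*, a cytokinin oxidase, was higher in Col-0 FT leaves (log2 fold change 0.65, adjusted p = 0.00703), and no other of the 7 passed between FT and GC in leaves of any genotype. Against Col-0, 1 of 7 was higher and 3 were lower in *elp2-5* FT leaves (median -0.38), and 2 were higher and 2 lower in *elp2-5* GC leaves (median 0.11), against 0.12 and 0.14 over all genes. The shares of all genes were 35.5% higher and 14.9% lower in FT, and 37.6% higher and 14.1% lower in GC. *XTH15*, a cell wall remodelling enzyme, had the lowest log2 fold change (-1.26 in FT and -1.51 in GC), and its FT call was lost without *elp2-5* FT replicate 1 or 2 or Col-0 FT replicate 1 or 4, and *BEE3*, a basic helix-loop-helix factor, followed (-0.81 in FT and -0.92 in GC). In *elp2-5* roots 5 of 6 tested were lower than in Col-0 in both FT and GC, with medians of -0.51 and -0.42, against -0.02 and -0.0042 over all genes, of which 21.2% in FT and 19.8% in GC were called lower. Among these 5 was *YUC8*, an auxin synthesis enzyme (log2 fold change -0.75 in FT and -0.64 in GC). Root markers were lower in the same groups, with 3 of 5 past the test in each environment and sums of 240.2 to 288.9 FPKM in *elp2-5* FT roots, against 314.5 to 356.5 FPKM in Col-0 FT roots, and of 266.2 to 284.6 FPKM in *elp2-5* GC roots, against 331.4 to 469 FPKM in Col-0 GC roots, and their part in this was not tested.

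The genes most like 5 of the members over the 24 leaf libraries were found by the root mean square (RMS) difference of gene-centred log2 values, as a description. For *ELIP1*, whose own SD was 1.15 on that scale, they were *TT5* (the chalcone isomerase gene *CHI* of the list above; RMS 0.291), *CHIL*, a chalcone isomerase-like gene (0.317), and *SMZ*, an AP2-type repressor of flowering (0.355). *TT5* averaged 93.1 ± 27.1 FPKM in *elp2-5* FT leaves, against 18.6 ± 1.09 FPKM in Col-0 FT leaves, and 106.2 ± 5.23 FPKM in *elp2-5* GC leaves, against 27.4 ± 6.05 FPKM in Col-0 GC leaves (SD, n = 4 each). For *ELIP2* (SD 0.604) the nearest were AT4G34550 (RMS 0.319), AT5G42760 (0.353) and AT1G65870 (0.376). For *PIF4* (SD 0.363) they were *PRR7*, a circadian clock repressor (0.218), AT3G16800 (0.225) and *UMAMIT11* (0.226). *PRR7* averaged 36.2 ± 4.91 FPKM in Col-0 FT leaves, against 24.4 ± 9.63 FPKM in Col-0 GC leaves. For *PHYA* (SD 0.19) they were AT1G58030, annotated as *CAT2* (RMS 0.0671), *OBE2* (0.0902) and *EMB3011* (0.091), and for *HY5* (SD 0.197) *EIF4B2* (0.119), AT4G16830 (0.125) and AT5G57290 (0.128).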

How the data were processed

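Poly(A) RNA from leaves and roots was sequenced by the authors as strand-specific libraries, which were aligned with STAR to TAIR10 and quantified with RSEM. FPKM were deposited by the authors, 1 table per organ, and were used as log2(FPKM + 0.5). Per the study's methods a replicate held plants from a pair of plates (1 *met1-7* FT replicate, from a single plate), so p-values measure the spread between such pools within a single flight and a single ground run, and no 2 libraries of a group were duplicates (RMS log2 difference 0.434 to 0.603). Depth is not recoverable from these values, so no count model was used. Neither the authors' own comparisons nor their methylation data were used here.

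Genes reaching 1 FPKM in 4 or more of the 24 libraries were fitted per organ over all groups with limma 3.58.1 in R 4.3.3, and p-values were adjusted by Benjamini-Hochberg over all genes tested. DEGs passed at 0.05 with a fitted difference of 2-fold or more and at least 1 library above 0 FPKM on both sides. Simulated data were used to test the fitting code. Alternatives were pseudocounts of 0.1 and 1, no filter, median-ratio scaling, quantile normalization, a replicate block, only the libraries compared, library weights, each library left out, and *ELIP1* and *ELIP2* summed. All members were named, with up to 2 genes per other list and comparison with the largest change past the test, plus the 3 genes most like each of 5 members. The members and the 11 other lists (75 genes) were chosen with earlier results of these data known. Ratios used scipy 1.17.1. Promoter windows were read from TAIR10.1, where 32548 of 32833 locus tags matched, and transcripts were compared with BLAST 2.17.0.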

Additional observations from a re-analysis of the deposited data

Results flagged for a closer look

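In 5 of 120 groups of 4 libraries 1 member had a library far from the others, and about 1 in 20 such groups would have one by chance. *PHYB* was 25.2 FPKM in *elp2-5* GC root replicate 2, against 36.55 to 38.7 FPKM in the other replicates. *HY5* was 14.5 FPKM in Col-0 GC leaf replicate 4, against 23.4 to 25.1 FPKM in the others. *PIF5* was 93.6 FPKM in Col-0 FT leaf replicate 1, against 67.0 to 69.5 FPKM in the others. *COP1* was 20.05 FPKM in Col-0 FT root replicate 1, against 21.6 to 21.9 FPKM in the others. *PIF4* was 0.3 FPKM in *elp2-5* FT root replicate 4, against 0.23 to 0.24 FPKM in the others.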

How the results depend on the processing

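Over all alternatives, 5137 of 5220 refitted values of the members kept their side of the threshold, 61 lost the call, 21 gained one and 1 turned and was then called. Among the 5137, 130 values, in 42 of 162 results, had the opposite sign without being called. The count of members past the test between *elp2-5* and Col-0 leaves, 7 over both environments, was 4 under median-ratio scaling and 4 under quantile normalization. The count for FT against GC in roots, 3 over the genotypes, was 6 with library weights and 0 with only the libraries compared. In fits to only the libraries compared, with fewer samples to estimate the spread, the calls of *PIF4* (limma adjusted p = 0.0567) and *ELIP1* (0.0599) for FT against GC in Col-0 leaves, *COP1* (0.0857) in *met1-7* leaves, *HYH* (0.117) and *ELIP2* (0.0806) in *elp2-5* roots and *COP1* (0.123) in *met1-7* roots were lost, as was that of *PHYB* (0.203) for *elp2-5* against Col-0 GC roots. The count for *met1-7* against Col-0 in roots, 0, was 1 without the filter and 1 with library weights.

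With each library left out, the members past the test numbered 7 to 10 for FT against GC in leaves (10 over all libraries), 1 to 4 in roots (1 without *elp2-5* FT replicate 1, 3 or 4), 7 each time for *elp2-5* against Col-0 in leaves, 7 to 9 in roots (8 over all libraries), 2 to 3 for *met1-7* against Col-0 in leaves (2 over all libraries) and 0 to 2 in roots (2 without *elp2-5* GC replicate 2). The interaction tests stayed at 0, and the DEGs numbered 3 to 4 in leaves and 0 in roots.

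In no comparison did all 4 pairs of libraries with the same replicate number correlate above 0.1. The highest single pairs, all between FT and GC, were 0.112 in *elp2-5* leaves, 0.126 in *met1-7* leaves and 0.141 in *elp2-5* roots. In *met1-7* leaves 4 of 8 libraries correlated best with their own number. This rule cannot exclude a deviation shared by some pairs. With a replicate block the counts were 9 for FT against GC in leaves and 2 in roots, and the calls lost were those of *ELIP1* in *met1-7* leaves and *COP1* in *met1-7* roots.

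With *ELIP1* and *ELIP2* summed as 1 gene the *ELIP2* value for *elp2-5* against Col-0 GC leaves, -0.18, became 1.08 (limma adjusted p = 4.82e-05), since the sum carries *ELIP1*. *SPA2* for *elp2-5* against Col-0 FT leaves, 0.13, became -0.023 under quantile normalization, and the cause was not tested. The FPKM limit all of these: depth per library is unknown, 4 libraries a group set the smallest exact p at 0.0286, and *PIF4* and *PIF5* were too low in roots to be tested.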

Other observations

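The partners of *COP1* were 8 genes. In *met1-7* leaves 2 were lower in FT than in GC, against 3.38% of all genes. They were *SPA4* (log2 fold change -0.43, adjusted p = 0.00206) and *SPA3* (log2 fold change -0.40, adjusted p = 0.00252), which act with COP1 in the ubiquitin ligase. In Col-0 leaves 0 of 8 passed in limma. The 2 responses were not shown to differ, with 0 of 8 past the interaction test. The same *met1-7* GC libraries enter the test against Col-0 that follows. Against Col-0, 4 of 8 were higher in *met1-7* GC leaves, led by *SPA4* (log2 fold change 0.40, adjusted p = 0.00181) and *SPA1* (log2 fold change 0.31, adjusted p = 0.00146), with a median of 0.15, against -0.0026 over all genes, of which 7.4% were called higher.

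Of 8 B-box genes, whose proteins act with or against HY5, *BBX31* was lower in Col-0 FT leaves than in GC (log2 fold change -0.80, adjusted p = 0.00486) and higher in *elp2-5* than in Col-0 leaves in FT (log2 fold change 1.25, adjusted p = 4.51e-06) and GC (log2 fold change 0.86, adjusted p = 0.000254). In *met1-7* FT leaves *BBX21* was higher (log2 fold change 0.38, adjusted p = 0.00895) and *BBX25* lower (log2 fold change -0.43, adjusted p = 0.0314) than in GC, the *BBX25* call being lost without FT replicate 1 or 3 or GC replicate 2 or 3. That of *BBX31* between FT and GC was lost in a fit to only the libraries compared (adjusted p = 0.0568). In *elp2-5* FT roots 4 of 8 were lower than in Col-0 (median -0.27, against -0.02 over all genes, of which 21.2% were called lower), led by *BBX30* (log2 fold change -0.71, adjusted p = 0.0104).

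Of 5 high-light stress markers, 4 were tested in leaves and 2 were higher in *elp2-5* than in Col-0 in both environments, against 35.5% of all genes called higher in FT and 37.6% in GC (medians of 0.89 and 0.42, against 0.12 and 0.14 over all genes). In roots 0 of 5 passed between *elp2-5* and Col-0 in either environment in limma, with *ZAT12* in FT (log2 fold change -0.65) at an unadjusted p under 0.05. *ZAT10*, a zinc finger factor, was higher by log2 fold change 2.00, adjusted p = 0.000487 in FT and log2 fold change 1.19, adjusted p = 0.0202 in GC, and *ZAT12* by log2 fold change 1.66, adjusted p = 0.000302 in FT and log2 fold change 0.85, adjusted p = 0.0347 in GC. In GC the *ZAT12* call was lost under both scalings and without *elp2-5* or Col-0 GC replicate 1, 3 or 4, and that of *ZAT10* without Col-0 GC replicate 1. Between FT and GC 0 of 4 passed in leaves of any genotype in limma, and in roots *APX2*, an ascorbate peroxidase, was higher in Col-0 FT (log2 fold change 0.76, adjusted p = 0.036), a call lost under quantile normalization and without FT or GC replicate 1, 3 or 4.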
